A study of Mus musculus with 15 samples.

Results

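The FoxO transcription factors are represented in these data by Foxo1, Foxo3, Foxo4 and Foxo6, which are 4 of the 23699 entries in each gene table. They were chosen by gene symbol and not by any measured value, and their levels were followed over all 15 libraries by genotype, ALDH activity and cre driver. All libraries were made from pancreatic islet cells of mice on a mixed 129JC57BL/6 background, sorted for a red fluorescent Rosa26-Tomato reporter that cre switches on. The sorted cells were divided by a fluorescent substrate of aldehyde dehydrogenase into ALDH- and ALDH+ cells. The study asked how ALDH+ beta cells differ from other beta cells, and how loss of FoxO changes them. According to the labels, knockout cells lacked Foxo1, Foxo3 and Foxo4, while Foxo6 was not targeted.

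The labels describe the controls as heterozygous for the 3 targeted genes. The cell-sorting methods of the study instead name control mice with RIP-Cre, the reporter and wild-type alleles of the 3 genes. Its general methods also describe control littermates with floxed alleles and no cre, in which cre could not switch on the reporter. The control level may therefore be that of cells with or without a deleted copy of each gene. The control group held 3 ALDH- and 2 ALDH+ libraries and the knockout group held 5 of each. Recombination was driven by RIP-Cre, in which the insulin promoter is active in beta cells, in 9 libraries. It was driven by Pdx-Cre, which acts earlier, in pancreatic precursors, in the other 6. The RIP-Cre libraries were replicates 1 and 2 of control ALDH-, replicate 1 of control ALDH+, and replicates 1 to 3 of both knockout groups. The RIP-Cre mice were 6 months old, the age of the Pdx-Cre mice is not given in the sources used here, and islets of several animals were collected per genotype. No source says whether replicates came from separate animals, so p-values measure only the spread between these libraries, which may be technical.

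FoxO proteins are forkhead transcription factors that act downstream of insulin. When insulin or growth factors activate phosphatidylinositol 3-kinase and AKT, FoxO proteins are phosphorylated, bound by 14-3-3 proteins and kept out of the nucleus. In fasting, oxidative stress or weak insulin signalling they stay nuclear and drive genes of stress defence, cell cycle arrest and fuel use. In beta cells FoxO1 is known for protecting the differentiated state under metabolic stress. Foxo6 differs from the other members in that its protein is found mainly in the nucleus.

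The 4 genes lie on different chromosomes and encode closely related DNA-binding domains. In the mm9 coordinates of the deposited tables Foxo1 spanned chr3:52072259-52154031, Foxo3 chr10:41905592-41996548, Foxo4 chrX:98449867-98456212 and Foxo6 chr4:119939683-119959866. In the GENCODE M21 annotation of GRCm38, the transcript with the longest coding sequence had 3 exons for Foxo1, 4 for Foxo3, 3 for Foxo4 and 2 for Foxo6. Its length was 8665 bases for Foxo1, 6848 for Foxo3, 3162 for Foxo4 and 2615 for Foxo6. Most of the Foxo1 transcript was noncoding: the last exon, which holds no coding base, made up 71.9% of its length, and the last exon of Foxo3, likewise noncoding, made up 65.1%. The exons removed by cre are not given in the sources used here. The gene-level values are not divided by exon, so a transcript that lost 1 exon and an intact one cannot be told apart in them. Which of these exons the deposited values cover is not given either.

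The most similar stretch of 60 coding bases in the 4 transcripts is shown because near-identical sequence is where fragments of one member could be assigned to another. It lies in the forkhead domain, and capitals mark the 9 positions at which the 4 members are not all the same.
Foxo1: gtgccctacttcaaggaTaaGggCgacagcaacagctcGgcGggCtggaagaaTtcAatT
Foxo3: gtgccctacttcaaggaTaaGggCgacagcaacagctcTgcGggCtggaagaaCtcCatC
Foxo4: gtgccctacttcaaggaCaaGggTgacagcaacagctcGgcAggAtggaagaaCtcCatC
Foxo6: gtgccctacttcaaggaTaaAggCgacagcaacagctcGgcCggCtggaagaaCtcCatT
The stretch covers coding bases 571 to 630 of Foxo1, 568 to 627 of Foxo3, 403 to 462 of Foxo4 and 364 to 423 of Foxo6. The members were identical at the other 51 positions, and 0 of the 20 codons differed in the residue they encode. Even so, no run of 50 bases was shared between the annotated transcripts of any pair of members (0 shared), and of runs of 25 bases 14 were shared, by Foxo1 and Foxo3.

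Values are in FPKM, fragments scaled to transcript length and to library size. The lengths used for that scaling are not given in the sources used here. In control ALDH- replicate 2, Foxo1 was at 16.7 FPKM on 1108 fragments and Foxo3 at 17.7 FPKM on 590. Foxo3 was therefore scaled by a far shorter length than Foxo1, more so than in the GENCODE transcripts above. Comparisons of FPKM between genes depend on these unknown lengths. The fragments behind the values summed to between 7492220 and 10058043 per library. Aldh1a3, the enzyme that the sort selects for, ranged from 0.490 to 4.09 FPKM after sorting for ALDH- cells, and from 22.1 to 76.9 FPKM after sorting for ALDH+ cells. The libraries carried beta cell transcripts, with Iapp at 33196 FPKM or more, Nkx6-1 at 25.8 FPKM or more and Pdx1 at 19.7 FPKM or more in every library. Mafa, a marker of mature beta cells, was only at 0.434 to 13.9 FPKM. Slc2a2, the beta cell glucose transporter, was at 99.95 to 227 FPKM in RIP-Cre libraries and at 8.61 to 24.6 FPKM in Pdx-Cre libraries. The Pdx-Cre ALDH- libraries also stood apart in the hormones of other islet cells, with Gcg ranging from 9533 to 35838 FPKM, whereas the RIP-Cre ALDH- range was 667 to 888 FPKM. The summed level of 10 acinar genes was 1479 FPKM in control ALDH+ replicate 2, 693 in knockout ALDH+ replicate 5 and 393 in knockout ALDH- replicate 5, and at most 38.0 in the other 12 libraries. All 3 of those libraries were Pdx-Cre libraries. In bulk RNA from sorted cells, fewer cells of a type and less RNA per cell cannot be told apart.

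Foxo1 was present at similar levels in all control libraries. It was at 20.1, 16.7 and 16.2 FPKM in control ALDH- replicates 1 to 3 and at 19.6 and 12.0 FPKM in control ALDH+ replicates 1 and 2. The lowest control value came from a Pdx-Cre library. In knockout ALDH- replicates 1 to 5 Foxo1 was at 2.45, 3.51, 2.54, 4.24 and 0.0925 FPKM. In knockout ALDH+ replicates 1 to 5 it was at 2.47, 1.15, 3.44, 0.523 and 1.98 FPKM. Thus every knockout library was below every control library, yet Foxo1 transcript was detected in all 10 of them. The values rested on 620 to 1276 fragments per control library and on 5 to 239 per knockout library.

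Foxo1 fell in the knockouts when both ALDH classes were averaged, with a difference of -2.58 ± 0.32 (SE) on the log2(FPKM + 1) scale (limma, adjusted p = 0.0020). In that comparison 13 of 11254 tested genes passed the threshold (0.116% called), and Foxo1 had the second smallest p. Averaging the classes was chosen after the separate comparisons had been seen. Within ALDH- cells the Foxo1 difference was -2.54 ± 0.42 (adjusted p = 0.0586), where 2 genes passed (0.0178% called). Within ALDH+ cells the difference was -2.61 ± 0.48 (adjusted p = 0.19), where 0 genes passed (0% called) and 742 had an unadjusted p under 0.05. The 2 differences were thus of similar size and missed the threshold of 0.05. Their own difference, the genotype by ALDH interaction, was -0.08 ± 0.63 with a 95% interval of -1.42 to 1.27, and no gene passed that test with limma (0% called, 475 at an unadjusted p under 0.05). The study itself, which tested counts with DESeq, listed Foxo1 first by p among genes differing between wild-type and knockout ALDH+ cells, and lower in the knockouts. An exact permutation test of genotype, two-sided and within ALDH class and cre driver, gave p = 0.00278 for Foxo1, the smallest that its 360 arrangements allow. It permuted ALDH- and ALDH+ libraries as separate units. If both classes came from the same sorts, fewer arrangements would be possible and the smallest p would be larger. The exact tests of single genes numbered 20 and their p-values were not adjusted.

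The average fall passed the threshold without the Pdx-Cre libraries, at -2.47 (limma, adjusted p = 0.0165). It did not pass without control ALDH+ replicate 2, where it was -2.60 with an adjusted p of 0.0516. In the ALDH- cells alone it passed without knockout ALDH- replicate 4 (-2.81, adjusted p = 0.0210) and without knockout ALDH+ replicate 4 (-2.55, adjusted p = 0.0452), so that a single library decided on which side of the threshold those values lay.

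**Figure D1:**
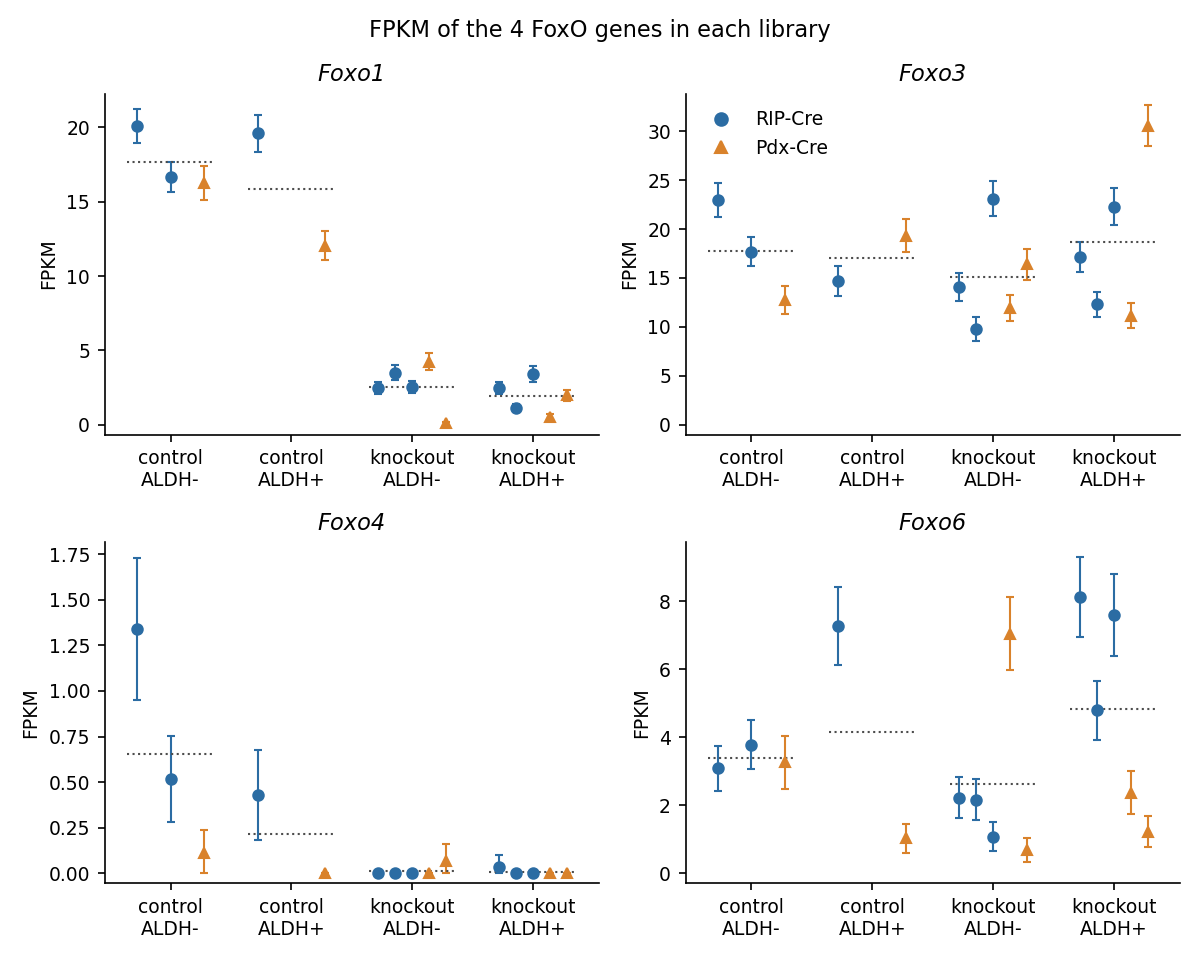
FPKM (vertical axes) of Foxo1, Foxo3, Foxo4 and Foxo6 in each library, by genotype and ALDH class; circles are RIP-Cre and triangles Pdx-Cre libraries, bars are the intervals deposited with the values and dotted lines are group means. Foxo1 lies between 12.0 and 20.1 FPKM in controls and at or under 4.24 FPKM in knockouts, whereas Foxo3 and Foxo6 overlap between the genotypes.

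The Foxo1 transcript that remained in the knockouts was set against the mean of the controls with the same ALDH class and cre driver, which was 1 library except for 2 in RIP-Cre ALDH- cells. In RIP-Cre knockouts it was 13.6%, 20.4% and 13.9% of control in ALDH- replicates 1 to 3 and 13.1%, 6.00% and 18.5% in ALDH+ replicates 1 to 3. In Pdx-Cre knockouts it was 22.9% and 0.553% in ALDH- replicates 4 and 5 and 4.34% and 16.5% in ALDH+ replicates 4 and 5. The Pdx-Cre libraries held both the highest and the lowest residual level. Their mean was 11.1% ± 10.4 (SD, n = 4) and that of the RIP-Cre libraries 14.2% ± 5.01 (SD, n = 6). The Pdx-Cre mean was 7.13% without knockout ALDH- replicate 4 and 14.6% without knockout ALDH- replicate 5, and so lay below or above the RIP-Cre mean.

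No difference in residual Foxo1 between the drivers was detected beyond the spread of the libraries. In knockout cells Foxo1 was lower with Pdx-Cre than with RIP-Cre by a difference of -0.64 ± 0.36 on the log2(FPKM + 1) scale (limma, adjusted p = 0.33), with a 95% interval of -1.41 to 0.13. It was -1.03 without knockout ALDH- replicate 4 and -0.23 without knockout ALDH- replicate 5, and passed in neither case (adjusted p = 0.078 and 0.77). In the same comparison 534 genes passed, 4.74% of those tested. With a pseudocount of 0.1 in place of 1, the Foxo1 difference was -1.32 (limma, adjusted p = 0.25). The exact permutation test over the 10 knockout libraries, two-sided and within ALDH class, gave p = 0.23, where 0.01 is the smallest p possible. The genotype difference itself was not shown to depend on the driver: the interaction was -0.38 ± 0.63 (limma, adjusted p = 1.00), with 0% called and 536 genes at an unadjusted p under 0.05. The spread of Foxo1 FPKM among knockout libraries was wider with Pdx-Cre, where the highest value was 45.9 times the lowest, against 3.06 times with RIP-Cre. The lowest Pdx-Cre value rested on 5 fragments, with a deposited interval of 0.00976 to 0.175 FPKM. The difference between the spreads was not tested.

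Transcripts of other cell types also varied between the 2 Pdx-Cre ALDH- knockout libraries. Replicate 5, with the least Foxo1, had acinar genes at a summed 393 FPKM with 1 of 10 at 0 (Ptf1a), whereas replicate 4 had 30.2 FPKM with 7 of 10 at 0. The summed level of 5 alpha cell genes was 9703 FPKM in replicate 5 and 17630 FPKM in replicate 4. Slc2a2 was at 9.21 and 22.5 FPKM. In the Pdx-Cre ALDH+ knockouts the order was the other way round, since replicate 5, with more Foxo1 (16.5% of control), had acinar genes at 693 FPKM and replicate 4, with less (4.34%), had them at 3.05 FPKM. The Pdx-Cre controls used as the reference, 1 library per ALDH class, also varied in these transcripts. In control ALDH+ replicate 2 the acinar genes summed to 1479 FPKM and the alpha cell genes to 6080 FPKM. In control ALDH- replicate 3 the sums were 38.0 and 36550 FPKM. The part of these transcripts in the residual Foxo1 level was not tested.

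**Figure D2:**
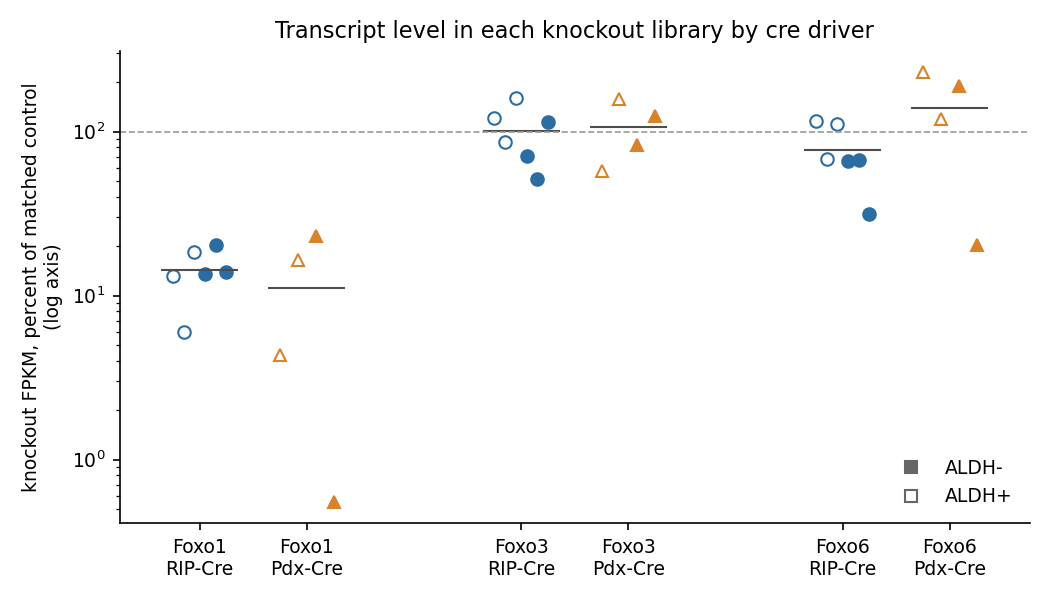
Level of Foxo1, Foxo3 and Foxo6 in each knockout library as a percent of the matched control mean (logarithmic vertical axis), by cre driver; filled symbols are ALDH-, open symbols ALDH+, bars the means and the dashed line marks the control level. Foxo1 lies between 0.553% and 22.9% of control, whereas Foxo3 and Foxo6 scatter around the control level with both drivers.

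Foxo3, the second targeted gene, was at control levels in the knockout libraries. It was at 23.0, 17.7 and 12.7 FPKM in control ALDH- replicates 1 to 3 and at 14.7 and 19.3 FPKM in control ALDH+ replicates 1 and 2. In knockout ALDH- replicates 1 to 5 it was at 14.1, 9.78, 23.1, 11.9 and 16.4 FPKM. In knockout ALDH+ replicates 1 to 5 it was at 17.1, 12.3, 22.3, 11.1 and 30.6 FPKM. The genotypes overlapped fully, and the highest value of all was in a knockout. As a percent of matched controls Foxo3 averaged 101% in RIP-Cre knockouts (51.3% to 160%, n = 6) and 106% in Pdx-Cre knockouts (57.7% to 159%, n = 4).

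No genotype difference was detected for Foxo3. With the classes averaged it was -0.09 ± 0.24 (limma, adjusted p = 0.97) and its 95% interval was -0.60 to 0.43. The ALDH- cells alone gave -0.25 ± 0.32, and the ALDH+ cells 0.08 ± 0.37. The two-sided exact permutation test gave p = 0.742. The interval leaves out a fall of the size seen for Foxo1. Since the deleted exons are not known here, these values do not check the knockout label for Foxo3. Nor was a difference between the drivers detected among the knockouts, at 0.04 ± 0.28 with a 95% interval of -0.56 to 0.64.

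Foxo4, the third targeted gene and the only X-linked member, was scarce even in controls. It was at 1.34, 0.517 and 0.110 FPKM in control ALDH- replicates 1 to 3, on 47, 19 and 3 fragments. In control ALDH+ replicates 1 and 2 it was at 0.428 FPKM on 12 fragments and at 0. The 3 RIP-Cre controls were thus above both Pdx-Cre controls. Among the 10 knockout libraries, 8 were at 0 and the others were knockout ALDH- replicate 5 at 0.0669 FPKM on 2 fragments and knockout ALDH+ replicate 1 at 0.0329 FPKM on 1 fragment. A count of 0 allows up to 3 fragments, which corresponded to 0.0817 to 0.110 FPKM in the 6 libraries with Foxo4 fragments.

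The two-sided exact permutation test of genotype gave p = 0.00833 for Foxo4, the smallest that so many zeros allow, at a difference of -0.47 on the log2(FPKM + 1) scale. Foxo4 did not reach the mean of 1 FPKM required for the fit across genes. When the requirement was dropped and 16928 genes were tested, its averaged difference was -0.44 ± 0.12 (limma, adjusted p = 0.27). In Pdx-Cre cells a loss was not detectable at this depth, since the controls themselves held 3 and 0 fragments.

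Foxo6, which was not targeted, spanned an 11.9-fold range and overlapped between the genotypes. It was at 3.09, 3.78 and 3.26 FPKM in control ALDH- replicates 1 to 3 and at 7.26 and 1.03 FPKM in control ALDH+ replicates 1 and 2. In knockout ALDH- replicates 1 to 5 it was at 2.22, 2.17, 1.08, 7.04 and 0.682 FPKM. In knockout ALDH+ replicates 1 to 5 it was at 8.13, 4.79, 7.59, 2.37 and 1.22 FPKM. The averaged genotype difference was -0.09 ± 0.39 (limma, adjusted p = 0.99), with a 95% interval of -0.93 to 0.74, and the two-sided exact permutation test gave p = 0.561. No rise of Foxo6 was detected in cells that lacked most of their Foxo1 transcript.

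Among RIP-Cre libraries, Foxo6 separated the ALDH classes. The 4 ALDH+ libraries were at 4.79 to 8.13 FPKM and the 5 ALDH- libraries at 1.08 to 3.78 FPKM, without overlap. The separation held in both genotypes, but in controls it rested on 1 ALDH+ library. The difference was 1.28 ± 0.38 on the log2(FPKM + 1) scale and did not pass after adjustment (limma, adjusted p = 0.14), in a comparison where 4 genes did (0.0355% called). The two-sided exact permutation test within genotype gave p = 0.0167, the smallest of its 60 arrangements. These comparisons within a driver were made after the values had been seen. In the same RIP-Cre libraries the summed alpha cell genes were at 1045 to 1420 FPKM in ALDH- and 476 to 1412 FPKM in ALDH+ cells, and the summed acinar genes at 2.02 to 9.26 and 0.246 to 5.50 FPKM.

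In Pdx-Cre libraries the Foxo6 difference had the other sign. The 3 ALDH- libraries gave 3.26, 7.04 and 0.682 FPKM, the 3 ALDH+ libraries 1.03, 2.37 and 1.22 FPKM. These overlapped, with a difference of -0.65 ± 0.46 (limma, adjusted p = 0.60, 0.0622% called) and an exact permutation p of 0.5, where 0.167 is the smallest possible. Leaving out 1 library at a time gave differences from -1.24 to -0.10. The difference between the drivers was -1.93 ± 0.60 (unadjusted p = 0.0054 and adjusted p = 1.00 by limma), in a test that no gene passed (0% called) and that 497 genes reached at an unadjusted p under 0.05. Alpha cell genes moved with ALDH class in these libraries, at a summed 9703 to 36550 FPKM in ALDH- and 576 to 6080 FPKM in ALDH+ cells. Acinar genes were at 30.2 to 393 and 3.05 to 1479 FPKM. Their part in the Foxo6 values was not tested.

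No ALDH difference was detected for the other members. In control cells Foxo1 differed between ALDH+ and ALDH- cells by -0.12 ± 0.52 and Foxo3 by -0.06 ± 0.40, in a comparison with 121 genes called (1.08% called). In knockout cells the Foxo1 difference was -0.19 ± 0.36 and the Foxo3 difference 0.27 ± 0.28, with 2 genes called (0.0178% called). For Foxo6 the same 2 differences were -0.01 ± 0.65 and 0.73 ± 0.45. None passed the threshold. The 95% interval for Foxo1 in control cells, -1.22 to 0.99, leaves room for a fall of up to 1.22 or a rise of up to 0.99 on the log2 scale. By quantitative PCR the study reported less Foxo1 in ALDH+ cells of wild-type mice, and the fall it gave was larger than this interval allows. The measures differ, and the controls here may not be wild-type. Exact permutation tests of ALDH over all 15 libraries, two-sided and within genotype and driver, gave p = 0.561 for Foxo1, 0.515 for Foxo3, 0.333 for Foxo4 and 0.258 for Foxo6.

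**Figure D3:**
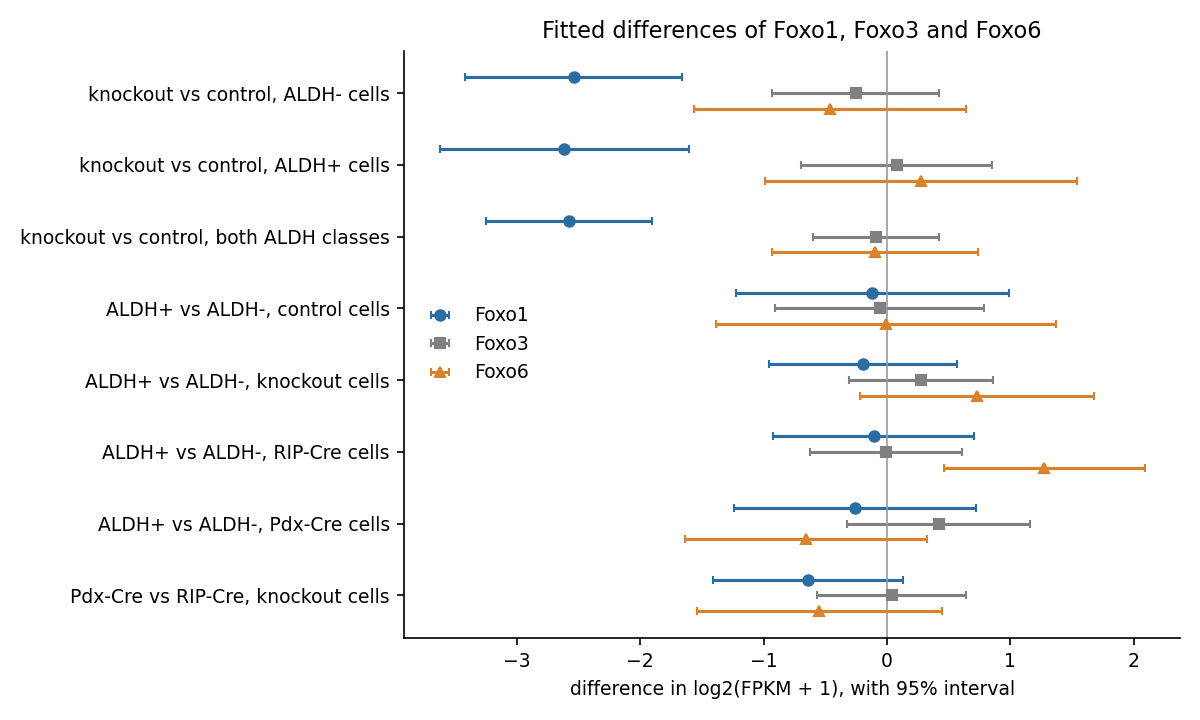
Fitted differences of Foxo1, Foxo3 and Foxo6 in log2(FPKM + 1), with 95% intervals, for 8 comparisons. The Foxo1 intervals of the 3 genotype comparisons lie wholly below 0, the Foxo6 interval in RIP-Cre cells lies above 0, and the other intervals include 0.

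The order of the 8 conditions by mean level differed from gene to gene. For Foxo1 the 4 control conditions came first, from RIP-Cre ALDH+ at 19.6 FPKM to Pdx-Cre ALDH+ at 12.0 FPKM, and the 4 knockout conditions followed at 2.83 to 1.25 FPKM. Neighbouring knockout conditions overlapped. For Foxo3 the means ran from 20.9 to 12.7 FPKM with control and knockout conditions intermingled, and no condition lay wholly above the next. For Foxo6 the RIP-Cre ALDH+ conditions led, at 7.26 FPKM in controls and 6.84 FPKM in knockouts.

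By FPKM, Foxo1 and Foxo3 together dominated the FoxO transcript pool of control cells, and Foxo3 that of knockout cells. Foxo1 made up 37.2% to 50.2% of the summed FPKM of the 4 genes in controls and 0.537% to 22.7% in knockouts. Foxo3 made up 35.0% to 59.7% in controls and 51.4% to 95.1% in knockouts. The 2 genotypes did not overlap in the Foxo1 share, and those of Foxo3 overlapped. The difference between knockouts and controls was -34.0 percentage points in the Foxo1 share and 28.1 points in the Foxo3 share (two-sided exact permutation tests, p = 0.00278 each, the smallest possible). Since shares add up to the whole, these are not separate results. The ratio of Foxo1 to Foxo3 within a library, which no scaling between libraries can move, was 0.623 to 1.34 in controls and 0.0056 to 0.359 in knockouts. The size of the shares, of this ratio and of the summed FPKM depends on the transcript lengths used, which are not known here.

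The summed FPKM of the 4 genes was 32.3 to 47.5 in controls and 14.0 to 33.8 in knockouts. The mean difference was -0.77 on the log2 scale, and the two-sided exact permutation test gave p = 0.0111. The sum overlapped between the genotypes in knockout ALDH+ replicate 5, at 33.8 FPKM with Foxo3 at 30.6, and in knockout ALDH+ replicate 3, at 33.3 FPKM with Foxo3 at 22.3 and Foxo6 at 7.59. Knockout ALDH- replicate 3, with Foxo3 at 23.1 and Foxo6 at 1.08 FPKM, summed to 26.7 FPKM. The share of Foxo6 was 3.18% to 17.3% in controls and 3.62% to 30.3% in knockouts (exact permutation p = 0.217).

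**Figure D4:**
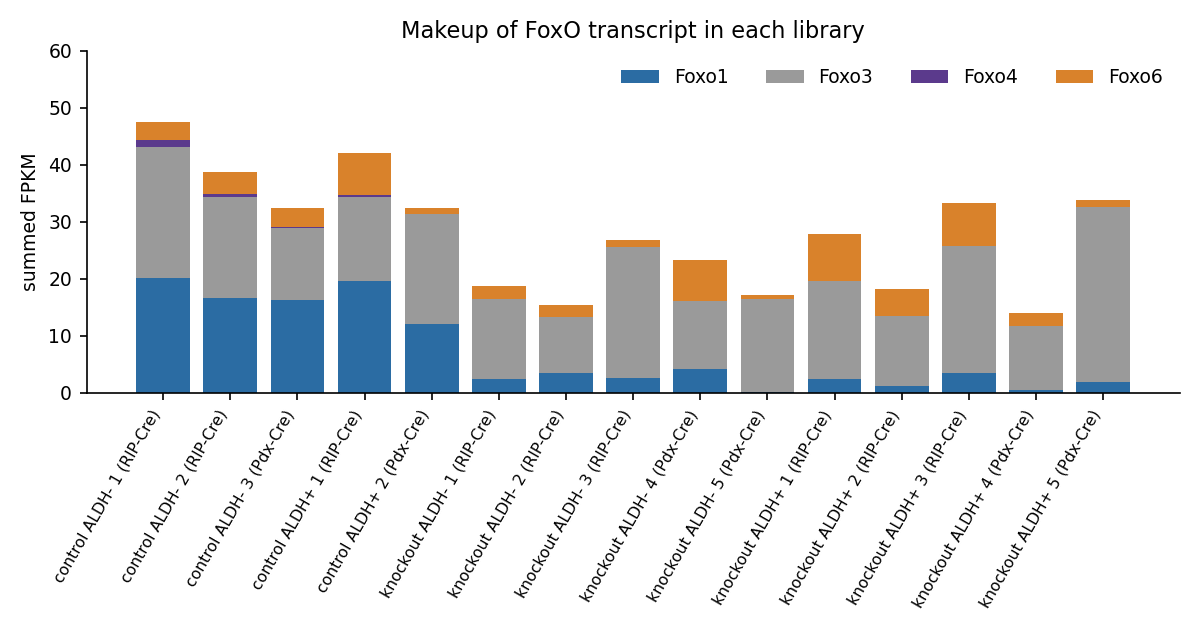
Summed FPKM of the 4 FoxO genes in each library (bars from 0), divided by gene; the cre driver stands in brackets. Foxo1 takes 37.2% to 50.2% of the bar in controls and 0.537% to 22.7% in knockouts, and Foxo3 takes the largest part of every knockout bar.

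Of 11254 genes, the one whose profile over the 15 libraries was nearest to that of Foxo1 was Ephx1, which encodes microsomal epoxide hydrolase. Its root mean square distance from Foxo1 was 0.632 log2 units after each profile was centred on its mean, where a flat profile would be 1.35 units away. Its knockout mean differed from its control mean by -1.74 log2 units. The next 4 genes were Msln (mesothelin), Vipr2 (a receptor for vasoactive intestinal peptide), 2210021J22Rik and Btbd8, at distances of 0.860 to 0.883 and with differences between -1.65 and -0.97. For Foxo3 the nearest profiles were those of Npas2, Stxbp2, Maml1, Mtf1 and Fbxo45 at 0.268 to 0.291 units, against 0.418 for a flat profile. For Foxo6 they were Zfr2, Dhx34, Ppwd1, Rsf1 and Hic2 at 0.456 to 0.513 units, against 0.787. The libraries share depth and scaling, and likeness of profile is given as a description.

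Genes that pass the insulin signal to FoxO formed a first list. The list held receptors, insulin receptor substrates, kinases and phosphatases, of which 24 of 27 were tested. In the average over ALDH classes 0 were called for genotype by limma, against 0.116% of all genes. An unadjusted p under 0.05 was reached by 2 of the 24, against 861 of all 11254 genes (7.65%). The median difference was 0.07 against 0.01 over all genes. The 2 with the smallest p were Pik3r2, a regulatory subunit of phosphatidylinositol 3-kinase, at -0.63 ± 0.21 (adjusted p = 0.44), and Phlpp1, a phosphatase of AKT, at 0.43 ± 0.20 (adjusted p = 0.64). Irs2 was at -0.32 ± 0.23 and Insr at 0.21 ± 0.14. Between ALDH classes of control cells 0 were called by limma, against 1.08% of all genes. An unadjusted p under 0.05 was reached by 3 of the 24, against 1601 of all genes (14.2%). Akt2 was at -0.82 ± 0.23 (adjusted p = 0.097) and Pik3r1 at 0.63 ± 0.20 (adjusted p = 0.15).

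Proteins that bind or modify FoxO, such as 14-3-3 proteins, deacetylases and ubiquitin ligases, formed a second list, with 31 of 34 tested. With genotype 0 were called and 0 had an unadjusted p under 0.05 in the average, against 0.116% and 7.65% of all genes. The median difference was 0.00, and the values with the smallest p were those of the kinase Csnk1a1 at 0.21 ± 0.10 (adjusted p = 0.67) and the ubiquitin ligase component Skp2 at -0.58 ± 0.30 (adjusted p = 0.71). With ALDH class in control cells 1 of the 31 was called, against 1.08% of all genes. An unadjusted p under 0.05 was reached by 3 of the 31, against 14.2% of all genes. The called gene was Ogt, the enzyme that adds N-acetylglucosamine to proteins, which rose by 1.20 ± 0.23 (limma, adjusted p = 0.0357). In knockout cells its difference was 0.59 ± 0.16 (adjusted p = 0.19). In the control comparison 0 genes were called without control ALDH- replicate 1, 2 or 3, or without the driver in the model, so the calls of Ogt and of Gabarapl1, described next, rested on each of those libraries and on that term. Without control ALDH+ replicate 1 the comparison called 1 gene, and with a replicate block 2 genes. The median of the list in control cells was 0.03 against -0.02 over all genes.

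Textbook FoxO targets were the third list, with 30 of 40 tested. With genotype 0 were called in the average and 2 of the 30 had an unadjusted p under 0.05, against 0.116% and 7.65% of all genes. The median difference was -0.12 against 0.01 over all genes, and the values ran from -0.64 to 0.92. The list was not divided into genes that FoxO raises and genes that it lowers, so its median has no expected direction. The mitochondrial superoxide dismutase Sod2 was at 0.73 ± 0.28 (adjusted p = 0.52) and cyclin D1, Ccnd1, at -0.64 ± 0.27 (adjusted p = 0.56). Between ALDH classes of control cells 1 of the 30 was called, against 1.08% of all genes. An unadjusted p under 0.05 was reached by 2 of the 30, against 14.2% of all genes. The called gene was the autophagy gene Gabarapl1, at -0.87 ± 0.19 (limma, adjusted p = 0.0406). Its genotype difference of -0.40 ± 0.15 in ALDH- cells did not pass, nor did that of 0.56 ± 0.17 in ALDH+ cells (adjusted p = 0.79 and 0.60).

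Of 41 other forkhead genes, 40 were in the tables and 11 were tested. With genotype 0 were called and 1 of the 11 had an unadjusted p under 0.05 in the average, against 0.116% and 7.65% of all genes. That gene was Foxp1 at -0.43 ± 0.14 (limma, adjusted p = 0.42), and Foxp2 was at -0.31 ± 0.28 (adjusted p = 0.88). The median of the list was -0.09 against 0.01 over all genes. Foxa2, a regulator of endocrine cell identity, was at 0.01 ± 0.18. Between ALDH classes of control cells none of the 11 passed by limma, and 0 had an unadjusted p under 0.05, against 1.08% and 14.2% of all genes.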

How the data were processed

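RNA from sorted cells was sequenced in 15 libraries. According to the submitters' processing notes, bcl2fastq 1.8.4 and TopHat2 2.0.4 were used with the mm9 build. The authors deposited 1 table per library with FPKM and its interval, in the layout of Cufflinks. The quantifier's version and the annotation are not given in the sources used here. Fragments were worked out from the interval width, taken as 2 standard errors, and 66.2% of values under 500 fragments came within 0.02 of a whole number. Intervals and floors cover counting error only.

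Symbols listed more than once (248, on 712 lines) and 63 lines without an estimate in some library were left out, leaving 22924 genes. Scaling factors between libraries came from a TMM calculation on FPKM without weights (trimming 30% by ratio and 5% by level). Values were fitted as log2(FPKM + 1) with limma 3.58.1 in R 4.3.3, for 11254 genes with a mean of at least 1 FPKM, with genotype, ALDH class and cre driver as terms. Adding 1 understates the change of low genes. P-values were adjusted over all tested genes by the method of Benjamini and Hochberg. A second model held the 4 genotype and driver groups and ALDH class, and another the 4 driver and ALDH groups and genotype. Exact tests permuted libraries within strata as separate units. If ALDH- and ALDH+ libraries came from the same sorts, the exact p-values for genotype, for the shares and for the sum could be too small. The study itself tested counts with DESeq, which could not be applied to FPKM. The procedures were tested on simulated data.

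The genes and lists were chosen with earlier results of these data known. The text names the 4 FoxO genes, 5 nearest profiles for each tested one, up to 3 called genes per direction of each list (otherwise the 2 with the smallest p), and Aldh1a3. Irs2, Insr, Foxa2 and single markers were named after their values were seen. Comparisons of the 2 ALDH classes with the same controls are not independent.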

Additional observations from a re-analysis of the deposited data

Results flagged for a closer look

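For 8 groups (the 4 genes in the 2 knockout groups of 5 libraries), the highest and lowest libraries were compared with the spread of their group by Dixon's criterion, which chance meets in about 1 of 20 groups. Foxo6 met it in knockout ALDH- cells, where replicate 4, a Pdx-Cre library, was at 7.04 FPKM and the other 4 were at 0.682 to 2.22 FPKM. Foxo4 met it in both groups because the other libraries of each were at 0: knockout ALDH- replicate 5 was at 0.0669 FPKM on 2 fragments and knockout ALDH+ replicate 1 at 0.0329 FPKM on 1 fragment.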

How the results depend on the processing

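Of 1195 values recomputed over all alternatives, 1042 kept their direction and their side of the threshold or stayed within the allowed range, 86 moved, 62 changed sign, 4 passed the threshold that had not and 1 no longer passed. The averaged fall of Foxo1 passed the threshold under 6 alternatives to scaling, filter, pseudocount, model and libraries, at -3.24 to -2.47, and its exact test gave p = 0.00278 under each alternative that kept all libraries. Depth limited Foxo4, which rested on 47 fragments or fewer. The genotype contrast of either ALDH class and the average share controls. The cause of the changes below was not tested.

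Counts of called genes depended on the settings. Without rescaling 1 gene was called for genotype in ALDH- cells and 11 for ALDH in Pdx-Cre cells. Without the filter the count was 33 for genotype in ALDH+ cells, 40 for the average, 1 for ALDH in knockout cells, 16 each for the interactions of genotype with ALDH and with driver, 1 for ALDH in RIP-Cre cells, 11 for ALDH in Pdx-Cre cells and 3 for the ALDH by driver interaction. Without the driver in the model it was 1 for genotype in ALDH- cells, 6 for the average and 0 for ALDH in control cells. With RIP-Cre libraries only it was 1 and 5 for genotype in ALDH- and ALDH+ cells, 20 and 0 for ALDH in control and knockout cells and 3 for the genotype by ALDH interaction.

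Differences near 0 changed sign. With RIP-Cre libraries only, Foxo6 was at -0.049 for genotype in ALDH+ cells, and in control cells the ALDH difference was 0.088 for Foxo1 and 0.89 for Foxo6, the latter being 0.017 without rescaling. The genotype by ALDH interaction of Foxo1 was 0.011 without the driver in the model. With a pseudocount of 0.1 the Foxo1 difference between ALDH classes of Pdx-Cre cells was 0.051 and its ALDH by driver interaction 0.20.

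Leaving out 1 library at a time gave 0 to 4 calls for genotype in ALDH- cells and in ALDH+ cells, 1 to 15 for the average, 0 to 243 and 1 to 3 for ALDH in control and knockout cells, 0 to 3 for genotype by ALDH, 205 to 681 for the driver, 0 to 2 for genotype by driver, 0 to 162 and 1 to 10 for ALDH in RIP-Cre and Pdx-Cre cells and 0 to 1 for ALDH by driver. The highest count for ALDH in control cells was without knockout ALDH+ replicate 3 and the lowest without any 1 of the control ALDH- libraries, that in RIP-Cre cells was highest without knockout ALDH+ replicate 2 and lowest without control ALDH+ replicate 1, and the average was lowest without control ALDH+ replicate 2. For Foxo1 the difference ranged from -2.81 to -2.22 for genotype in ALDH- cells, -2.72 to -2.40 for the average, -0.27 to 0.11 and -0.54 to 0.09 for ALDH in control and knockout cells, -0.36 to 0.17 for genotype by ALDH, -1.03 to -0.23 for the driver, -0.26 to 0.09 and -0.91 to 0.25 for ALDH in RIP-Cre and Pdx-Cre cells and -0.77 to 0.33 for ALDH by driver. Foxo3 ranged from -0.18 to 0.32 for genotype in ALDH+ cells, -0.21 to 0.036 for the average, -0.30 to 0.20 for ALDH in control cells, -0.19 to 0.13 in RIP-Cre cells, -0.25 to 0.26 for the driver (-0.26 to 0.21 in the exact test) and -0.16 to 0.43 for genotype by driver. Foxo6 ranged from -0.49 to 1.08 for genotype in ALDH+ cells, -0.48 to 0.30 for the average (-0.36 to 0.14 in the exact test), -0.83 to 0.74 for ALDH in control cells, -0.007 to 1.56 for genotype by ALDH and -0.58 to 1.34 for genotype by driver. Foxo4 ranged from -0.008 to 0.025 in the exact test of the driver. Without knockout ALDH- replicate 4 the exact permutation p of Foxo6 was 0.0444 for ALDH and 0.025 for the driver.

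The labels number the replicates, but no source says that a number marks a shared animal. Deviations of same-numbered knockout libraries from their group means correlated over genes by 0.092 to 0.406, a range that includes the driver, since numbers 4 and 5 are Pdx-Cre in both groups. With driver means removed too it was 0.037 to 0.206. In the first measure, 9 of 10 knockout libraries correlated best with the library of their own number, a hint from the data and not from the design. With a replicate block the ALDH comparison in control cells called 2 genes, and the genotype by ALDH interaction of Foxo1 was 0.012.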
